A study of Mus musculus with 18 samples.

Results

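The 10 genes described here are Hsd17b2, Dnah6, Penk, Rragd, Arhgap5, Gnal, Adss, Crip1, Pdlim1 and Tmsb10. They were chosen from 13387 genes tested because they differed between bone marrow neutrophils labelled Zeb2-deficient and their controls, so their neutrophil values are a description and carry no test. The genotype difference in monocytes played no part in that choice and could be tested. The spread of the monocyte arrays did enter the fit over all 18 arrays by which the genes were called, so the monocyte test is not wholly independent of it. Both cell types had been sorted by flow cytometry from the marrow of C57BL/6 mice, the monocytes by high surface Ly-6C, and were profiled on 18 arrays, 9 for each.

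In each cell type, 4 arrays came from mice of genotype Zeb2(fl/fl);Mx1-Cre(tg), labelled Zeb2-deficient and given poly(I:C). Another 4 came from Zeb2(fl/fl) control mice given poly(I:C), and 1 came from an untreated Zeb2(fl/fl) control. Poly(I:C) imitates viral double-stranded RNA and makes cells release interferon. It was given into the abdomen as 150 µg, 2 times in the space of 48 h, with cells collected 3 weeks after that. All groups carried the floxed Zeb2 alleles. Mx1-Cre is switched on by interferon in blood cells and in many other tissues, so the deletion was not limited to neutrophils or monocytes. The controls carried no Cre, so what Cre does and what losing Zeb2 does cannot be told apart. The labels do not say that each array of a group came from its own animal, so the p-values measure only the spread between these arrays. Genes of the sex chromosomes, given below, differed within each group of 4, so its arrays did not all come from 1 animal. Part of the spread may still be technical. Ages of the mice are not used here.

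Zeb2 is a zinc-finger transcription factor, best known as a repressor of epithelial genes, which binds paired CACCT or CACCTG elements and is used by several myeloid and lymphoid lineages. Neutrophils are short-lived phagocytes that mature in the marrow, where they fill with preformed granules before they enter the blood. The 10 genes belong to no single pathway. They comprise a pair of metabolic enzymes (Hsd17b2 and Adss), signalling proteins (Rragd, Arhgap5, Gnal and the peptide precursor Penk) and proteins of the cytoskeleton or with LIM domains (Dnah6, Crip1, Pdlim1 and Tmsb10).

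The level of Zeb2 itself ran against the label in neutrophils. Neutrophils labelled Zeb2-deficient read 7.72, 7.10, 7.85 and 8.25 (log2 intensity, replicates 1 to 4), against 7.19, 6.86, 7.54 and 7.40 in poly(I:C) control neutrophils. The means were 7.73 ± 0.48 in neutrophils labelled Zeb2-deficient and 7.24 ± 0.30 in their controls (SD, n = 4 each), and the difference of 0.49 ± 0.24 (SE) did not pass the test in limma (adjusted p = 0.972). Monocytes labelled Zeb2-deficient read 9.75, 9.84, 9.46 and 8.74, against 10.08, 9.88, 9.88 and 9.86 in poly(I:C) control monocytes, a difference of -0.48 ± 0.21 with adjusted p = 0.258. Since the probe set reads the transcript as a whole and the deleted stretch is not named, these levels do not check the deletion. The directions given below rest on the labels.

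The neutrophils and the control monocytes carried the markers of their labels. Monocytes labelled Zeb2-deficient carried markers of other cells too, as given with their results. So did poly(I:C) control monocyte replicates 4 and 5. Summed over 14 mature neutrophil markers, the linear intensity was 61718 to 64724 in neutrophils labelled Zeb2-deficient and 65111 to 66382 in poly(I:C) control neutrophils, against 5517 to 17936 in poly(I:C) control monocytes. Over 13 of 14 Ly-6C(hi) monocyte markers the sum was 946 to 1208 in neutrophils labelled Zeb2-deficient and 945 to 1086 in control neutrophils, against 17350 to 19921 in control monocytes. The arrays also fell into 2 sets by deviations that samples of different groups shared. Set A held control replicates 1, 2 and 3 and labelled-deficient replicates 1 and 2, and set B held the remainder. The labels name no such sets. Poly(I:C) control monocytes of set B (replicates 4 and 5) had mature neutrophil marker sums of 17940 and 13700. Those of set A (replicates 1 and 2) had 6297 and 5517. In replicate 4 the sum over monocyte markers was 17350. The sets differed in genes of the sex chromosomes: Xist, the RNA that silences an X chromosome in females, read 2.57 to 3.39 in set A and 8.51 to 9.72 in set B, whereas the Y-linked Eif2s3y read 8.10 to 9.03 in set A and 2.19 to 2.86 in set B. Labelled-deficient and poly(I:C) control groups held 2 arrays of each set in each cell type. The genotype differences of the 10 genes and the numbers of genes called were recomputed within the sets.

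For 7 of the 10 genes a promoter window was listed by RefSeq, with 9 start sites among them. The short element bound by Zeb2, CACCT or its reverse complement AGGTG, was searched in the 250 bases upstream of each start on both strands. It occurred in 3 of the 7 genes (Rragd, Pdlim1 and Tmsb10, the last with 3 windows). Counted by window it occurred in 4 of the 9, beside 46.0% of all 32851 mouse windows of the same length. The longer form CACCTG or CAGGTG overlaps the short one. It occurred in 1 of the 9 windows (Tmsb10, at another start site than the one printed) and in 17.2% of all windows. The element CACGTG, a target of basic helix-loop-helix and MiT/TFE factors such as those that act on Rragd, occurred in 0 of the 7 genes and in 6.02% of all windows. A match is a description of these letters and shows no binding. The windows of the 3 genes with the short element are printed below 5′ to 3′ on the gene's strand, ending at the base before the start site, with Crip1 as a window without it. Coordinates are GRCm38.p6, and capitals mark CACCT or AGGTG.
Rragd, chr4:32982748-32982997, plus strand: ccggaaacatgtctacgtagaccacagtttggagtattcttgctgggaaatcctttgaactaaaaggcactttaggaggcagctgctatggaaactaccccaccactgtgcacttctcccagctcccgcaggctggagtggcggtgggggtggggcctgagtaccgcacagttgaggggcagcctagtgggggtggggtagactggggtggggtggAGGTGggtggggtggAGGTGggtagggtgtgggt
Pdlim1, chr19:40271617-40271866, minus strand: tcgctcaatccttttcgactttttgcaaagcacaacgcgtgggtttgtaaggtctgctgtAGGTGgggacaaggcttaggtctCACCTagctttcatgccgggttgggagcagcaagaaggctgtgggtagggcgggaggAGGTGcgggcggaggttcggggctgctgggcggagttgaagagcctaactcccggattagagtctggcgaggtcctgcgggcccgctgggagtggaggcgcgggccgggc
Tmsb10, first start site, chr6:72958749-72958998, minus strand: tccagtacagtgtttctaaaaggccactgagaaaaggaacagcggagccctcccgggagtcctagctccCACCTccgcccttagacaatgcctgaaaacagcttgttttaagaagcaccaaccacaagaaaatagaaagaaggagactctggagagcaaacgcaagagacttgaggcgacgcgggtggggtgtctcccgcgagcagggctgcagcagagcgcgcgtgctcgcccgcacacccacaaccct
Crip1, chr12:113151762-113152011, plus strand: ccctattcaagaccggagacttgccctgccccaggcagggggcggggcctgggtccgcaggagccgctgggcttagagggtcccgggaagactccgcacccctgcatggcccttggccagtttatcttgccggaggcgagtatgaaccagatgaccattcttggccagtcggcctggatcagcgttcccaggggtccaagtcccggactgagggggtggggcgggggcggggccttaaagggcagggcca
Counted from the start site, the matches began at -34 and -19 in Rragd, at -190, -167 and -110 in Pdlim1, and at -181 in the first Tmsb10 window. Both Rragd matches stand in the G-rich repeat that closes its window.

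In neutrophils labelled Zeb2-deficient, 8 of the 10 genes were higher than in poly(I:C) control neutrophils and 2 (Penk and Adss) were lower. The 4 arrays labelled deficient and the 4 control arrays did not overlap for any of the 10 genes, a state found for 3.43% of all genes tested (1.84% with the labelled-deficient arrays higher and 1.59% with them lower). The choice of the genes used this contrast, so nothing is read from that count. The differences ran from 2.36 (Hsd17b2, 5.13-fold higher) to -1.21 (Penk, 2.31-fold lower) on the log2 scale, where the median of all genes tested was -0.0099. Every value below is a log2 RMA intensity of 1 probe set, which may be compared between arrays but not between genes.

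Hsd17b2, a hydroxysteroid dehydrogenase that inactivates oestradiol and testosterone by oxidation, had the largest difference. It read 6.96, 6.49, 7.04 and 7.83 in neutrophils labelled Zeb2-deficient (replicates 1 to 4), against 4.78, 4.79, 4.77 and 4.54 in poly(I:C) control neutrophils (replicates 1, 2, 4 and 5). The lowest array labelled deficient lay 1.70 above the highest control, the widest gap of the 10 genes. Adss, adenylosuccinate synthetase, which commits inosine monophosphate to adenine nucleotides, was the enzyme that differed the other way. It read 7.10, 7.49, 7.43 and 7.38 in neutrophils labelled Zeb2-deficient, against 7.92, 7.84, 7.99 and 8.11 in their controls. The difference was -0.61 ± 0.11 (SE), 1.53-fold lower, and replicate 1 was the lowest of the labelled-deficient arrays.

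Among the signalling genes, Rragd and Arhgap5 were both higher. Rragd encodes RagD, a GTPase that with RagA or RagB carries amino acid signals to mTOR complex 1 on the lysosome, and whose transcription MiT/TFE factors raise. It read 6.14, 6.07, 6.56 and 6.31 in neutrophils labelled Zeb2-deficient, against 5.58, 4.79, 5.36 and 4.91 in control neutrophils, a difference of 1.11 ± 0.15 (2.16-fold). The control arrays spread over more of the scale here than the labelled-deficient ones, with SDs of 0.22 for arrays labelled deficient and 0.37 for controls. Arhgap5, a GTPase-activating protein, read 4.82, 4.50, 4.57 and 5.01 in neutrophils labelled Zeb2-deficient, against 3.86, 3.73, 3.73 and 3.86 in their controls. The difference was 0.93 ± 0.14 (1.91-fold). The gene entered the tests only through those 4 labelled-deficient neutrophil arrays: it lay below the 40th percentile of the array on each of the other 14.

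Gnal and Penk also lay near the low end of the signal. Gnal encodes the stimulatory G protein alpha subunit of olfactory and striatal neurons, which activates adenylyl cyclase. It read 4.81, 4.73, 4.50 and 4.93 in neutrophils labelled Zeb2-deficient, against 4.08, 4.23, 4.04 and 4.32 in control neutrophils, a difference of 0.57 ± 0.10 (1.49-fold). It exceeded its array's 40th percentile on 3 labelled-deficient neutrophil arrays and on the untreated monocyte array alone. Penk, the precursor of the enkephalins, opioid peptides that immune cells can also make, ran the other way. It read 4.42, 4.32, 4.33 and 4.24 in neutrophils labelled Zeb2-deficient, against 5.71, 5.69, 5.09 and 5.66 in their controls, a difference of -1.21 ± 0.14. All 4 labelled-deficient arrays lay below their 40th percentile, while all 4 control arrays lay above it.

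The cytoskeletal and LIM-domain genes were all higher in neutrophils labelled Zeb2-deficient. Dnah6, an axonemal dynein heavy chain known from motile cilia, read 8.07, 7.79, 8.66 and 8.08 in these neutrophils, against 6.51, 6.67, 6.65 and 6.82 in controls. The difference was 1.49 ± 0.16 (2.81-fold), with the groups 0.97 apart at their nearest arrays. Crip1, a small cysteine-rich protein made of 1 LIM domain, read 7.59, 7.18, 6.69 and 7.87 in neutrophils labelled Zeb2-deficient, against 6.60, 6.36, 5.51 and 5.98 in their controls, a difference of 1.22 ± 0.23 (2.33-fold). Its groups almost met: labelled-deficient replicate 3 lay 0.092 above control replicate 1.

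Pdlim1, an adaptor with a PDZ and a LIM domain that binds alpha-actinin on stress fibres, read 6.45, 5.54, 6.59 and 6.96 in neutrophils labelled Zeb2-deficient, against 5.13, 4.85, 5.31 and 5.33 in control neutrophils. The difference was 1.23 ± 0.22 (2.35-fold), and labelled-deficient replicate 2 stood below the others of its group. Tmsb10, a thymosin that binds actin monomers, read 11.40, 11.17, 11.55 and 11.59 in neutrophils labelled Zeb2-deficient, against 10.60, 10.62, 10.81 and 11.01 in their controls, a difference of 0.66 ± 0.10 (1.58-fold). In sorted populations such as these, fewer cells with a transcript and less of it per cell cannot be told apart.

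**Figure D1:**
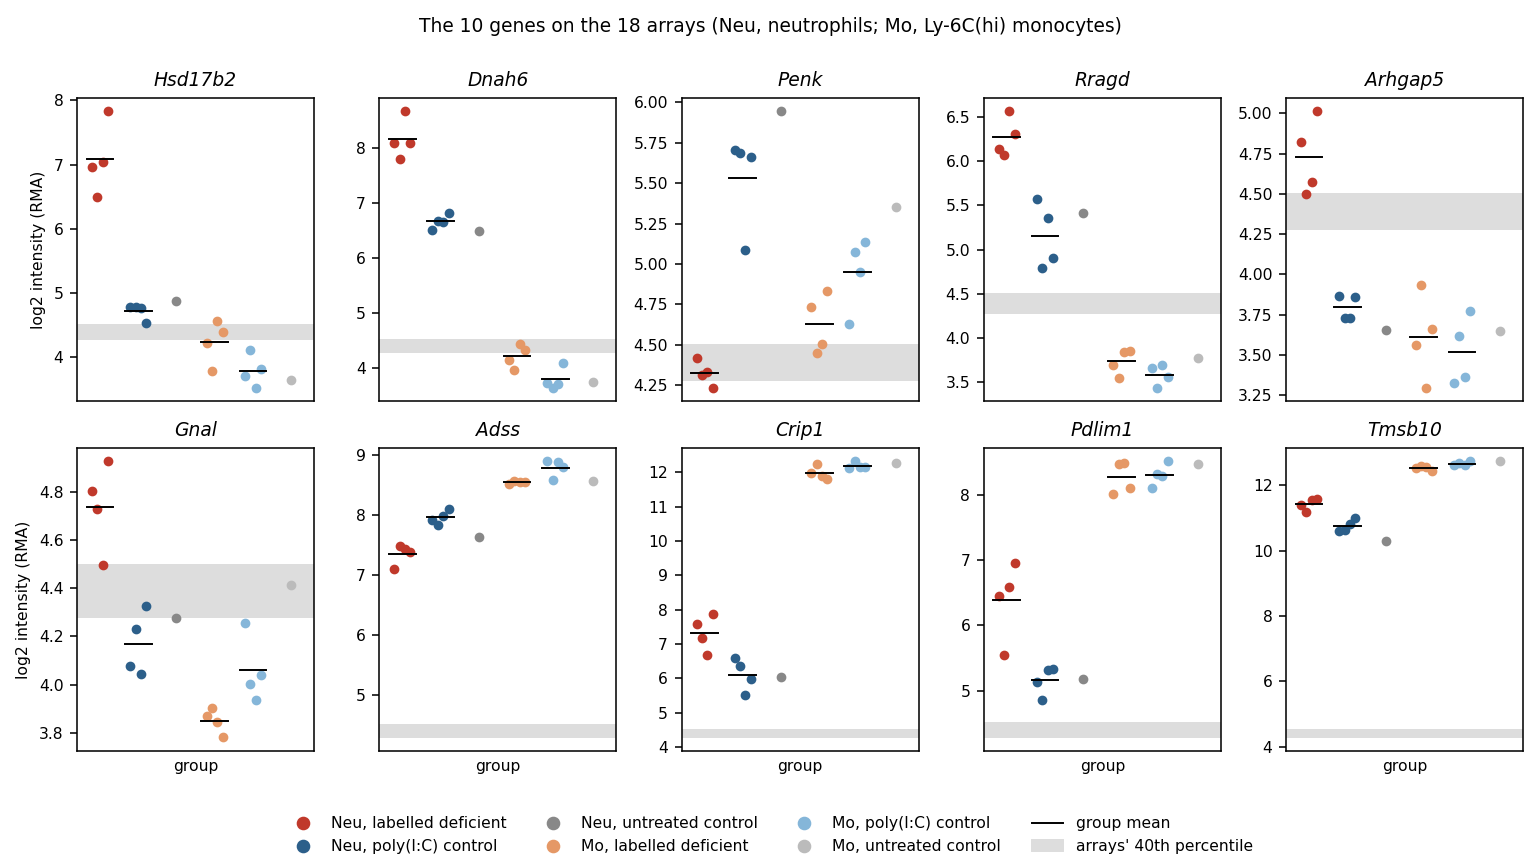
Log2 RMA intensity of each of the 10 genes on the 18 arrays, 1 point per array, with neutrophils to the left of monocytes, short lines at the means of groups of 4, a grey band over the arrays' 40th percentiles and a separate vertical scale per gene. In neutrophils the 4 labelled-deficient arrays lie wholly above the poly(I:C) controls for 8 genes and wholly below for Penk and Adss, while Crip1, Pdlim1 and Tmsb10 read far higher in monocytes of any genotype.

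The same direction was found in both array sets for all 10 genes. The labelled-deficient and control arrays did not overlap for any of them, so that direction was fixed in advance. Only the sizes are described here. Hsd17b2 differed by 1.94 in set A and 2.78 in set B, Crip1 by 0.91 in set A and 1.53 in set B, Pdlim1 by 1.01 in set A and 1.45 in set B. Rragd differed by 0.92 in set A and 1.30 in set B. The other genes moved less between sets: Dnah6 differed by 1.34 in set A and 1.64 in set B, Penk by -1.33 in set A and -1.09 in set B. Tmsb10 differed by 0.67 in set A and 0.66 in set B. Each set held only 2 labelled-deficient and 2 control arrays of neutrophils given poly(I:C).

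The single untreated control neutrophil array lay nearer to the poly(I:C) controls than to the arrays labelled deficient for 9 of the 10 genes, with Adss (7.63) as the exception. It fell outside the range of the 4 poly(I:C) controls for 6 genes. Tmsb10 (10.29), Dnah6 (6.49) and Arhgap5 (3.66) were lower in it than in any poly(I:C) control, and Penk (5.94) was higher than in any, so for these 4 genes the untreated array stood on the far side of the controls from the arrays labelled deficient. Hsd17b2 (4.87) and Adss were outside on the side of the arrays labelled deficient. The genes were chosen for a distance between the labelled-deficient and control arrays, and shares over all genes were not counted. Nothing is therefore read from these counts. One array allows no test of the treatment.

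Labelled-deficient replicate 4 was the highest of its group for 6 of the 8 higher genes, and replicate 2 was the lowest for 6 of the 8. Replicate 4 also had the highest sums of several marker lists of other cells. Summed over 5 of 7 platelet and megakaryocyte markers, arrays labelled deficient read 350, 171, 1031 and 1835 in order of replicate, against 158 to 627 in control neutrophils. Of these markers Ppbp differed by 1.66 ± 1.14 and Pf4 by 1.165 ± 0.80 (SE). Itga2b (0.04), Gp9 (0.007) and Vwf (-0.06) hardly differed. The sum over 7 eosinophil markers was 192 to 309 in neutrophils labelled Zeb2-deficient, against 169 to 195 in controls. Over 11 of 12 T and NK cell markers it was 329 to 557 in neutrophils labelled Zeb2-deficient, against 333 to 398 in controls. Over 11 primary granule markers it was 844 to 1312 in neutrophils labelled Zeb2-deficient, against 855 to 963 in controls. Nkg7, which differed by 0.65 ± 0.64 (SE), stands in both of these lists. No member of the 11 marker lists was called between the neutrophil groups. Only 0.12% of all genes tested were called there, so nothing is read from that. Without replicate 4 the difference was 2.11 for Hsd17b2, 1.04 for Crip1, 1.04 for Pdlim1, 0.84 for Arhgap5, 0.61 for Tmsb10 and 0.51 for Gnal. Dnah6 (1.51), Rragd (1.10), Penk (-1.18) and Adss (-0.62) hardly moved. Any part of these other cells in the neutrophil differences was not tested beyond leaving out the array.

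**Figure D2:**
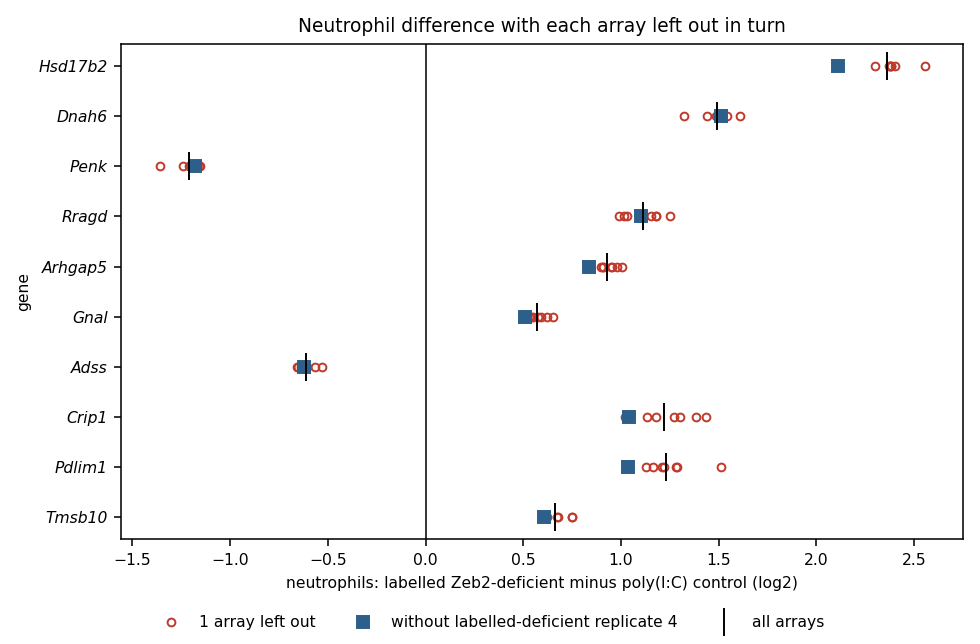
Neutrophil difference of each gene (log2, arrays labelled Zeb2-deficient minus controls given poly(I:C)), with all arrays (black line), with 1 array left out in turn (open circles) and without labelled-deficient replicate 4 (blue square). No gene could change sign, since its groups did not overlap, and the largest moves were in Hsd17b2, Crip1 and Pdlim1.

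Of the 10 genes, 3 had more than 1 probe set. Both probe sets of Pdlim1 and both of Tmsb10 behaved alike: the second one of Pdlim1 averaged 6.36 ± 0.54 in neutrophils labelled Zeb2-deficient and 4.65 ± 0.35 in controls, and that of Tmsb10 averaged 11.46 ± 0.23 in neutrophils labelled Zeb2-deficient and 10.75 ± 0.21 in controls (SD, n = 4 each). Dnah6 did not. Only the probe set with the highest mean differed, while the others read 3.24 ± 0.12 in neutrophils labelled Zeb2-deficient and 3.34 ± 0.07 in controls, and 2.95 ± 0.09 in neutrophils labelled Zeb2-deficient and 2.70 ± 0.17 in controls. Both of these had overlapping groups and lay far below the 40th percentiles of the arrays, which ran from 4.28 to 4.50. The mean over all Dnah6 probe sets differed by 0.55, against 1.49 for the highest one. Dnah6 is therefore described by 1 probe set of 3, and which part of the transcript that one reads was not examined.

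**Figure D3:**
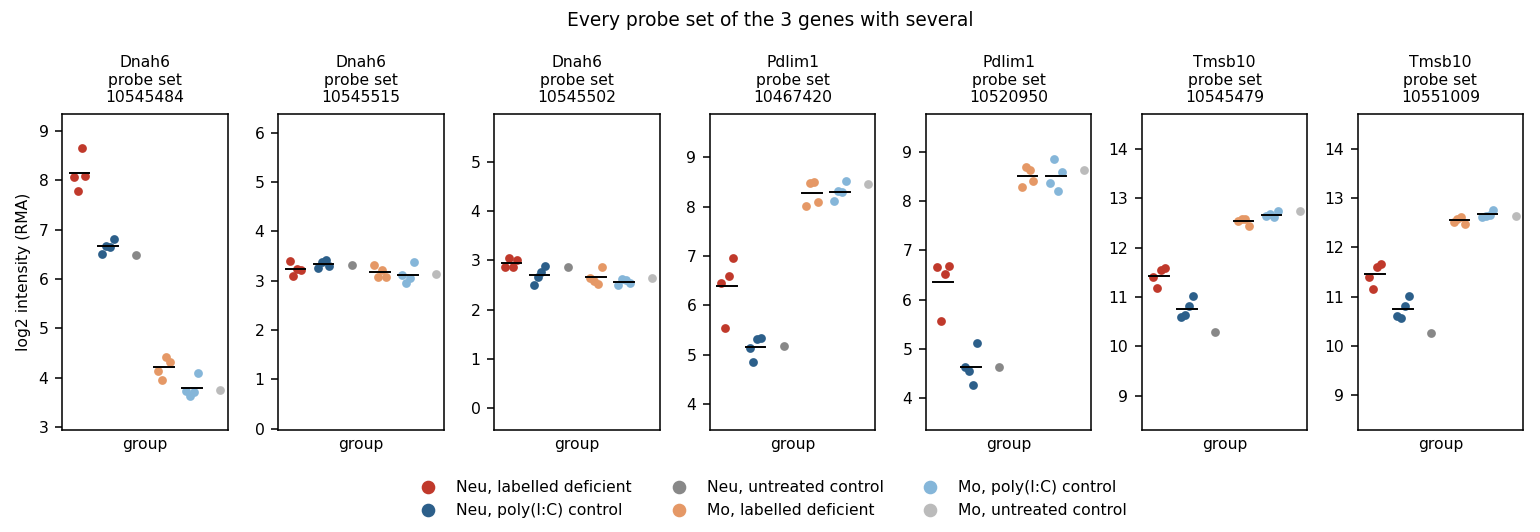
Log2 RMA intensity of every probe set of Dnah6, Pdlim1 and Tmsb10 on the 18 arrays, 1 point per array and lines at the means of groups of 4, each panel with its own vertical range of equal length. For Dnah6 only the left panel separates the neutrophil groups, whereas both panels of Pdlim1 and both of Tmsb10 do.

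Tmsb10 and Dnah6 were also neighbours: in RefSeq's gene order on chromosome 6 no other protein-coding gene lies between them, only Gm18402 and Gm31547. This was seen after the values were known. The next protein-coding genes on the outer sides, Kcmf1 beside Tmsb10 and Suclg1 beside Dnah6, differed by -0.12 and -0.09 in neutrophils. Over the 6 tested neighbours of the 10 genes that are not among the 10, the median difference was -0.0001, 0 of 6 had groups that did not overlap and 0 of 6 were called by limma, and the largest difference was that of Mphosph6 beside Hsd17b2 (0.61).

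The monocytes asked whether the 10 genes differ with the same genotype in another myeloid cell of the marrow. None of the 10 passed the test there (limma on the 9 monocyte arrays, two-sided, Benjamini-Hochberg adjusted over all 13387 genes), where 3.74% of all genes tested were called. At an unadjusted p below 0.05 there were 4 of 10 (Hsd17b2, Dnah6, Penk and Gnal), against 18% of all genes. Without labelled-deficient monocyte replicate 2, 3 of the 10 passed (Hsd17b2 at 0.60, Dnah6 at 0.51 and Crip1 at -0.30), where 12.1% of all genes did. With the array set as a block 1 passed (Dnah6), where 8.87% of all genes did. By sign 4 of the 10 were higher and 6 lower in monocytes labelled Zeb2-deficient, and 6 had the sign they had in neutrophils. The 95% interval of the monocyte difference left out the neutrophil difference for all 10 genes. That comparison favours a gap, because the genes were chosen for large neutrophil differences, and the difference between cell types was therefore not tested.

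Hsd17b2 had the highest monocyte difference, 0.45 ± 0.17 (SE, 95% interval 0.071 to 0.82, adjusted p = 0.191 in limma). It read 4.22, 3.79, 4.56 and 4.40 in monocytes labelled Zeb2-deficient, against 3.72, 4.11, 3.53 and 3.83 in poly(I:C) control monocytes, so the groups overlapped, and only 2 of the 8 arrays exceeded their 40th percentile. Dnah6 followed with 0.42 ± 0.13 (interval 0.13 to 0.71, adjusted p = 0.112). Its arrays read 4.14, 3.95, 4.42 and 4.33 in monocytes labelled Zeb2-deficient and 3.73, 3.64, 3.70 and 4.08 in controls, with an overlap of 1 array on each side. Penk differed by -0.32 ± 0.14 (interval -0.62 to -0.015, adjusted p = 0.253), at 4.63 ± 0.18 in monocytes labelled Zeb2-deficient and 4.95 ± 0.23 in controls (SD, n = 4 each).

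Gnal, Adss and Tmsb10 were the 3 genes whose monocyte groups did not overlap, all lower in monocytes labelled Zeb2-deficient, where 10% of all genes tested had groups that did not overlap and 3.92% did so in the lower direction. Gnal read 3.87, 3.90, 3.85 and 3.78 in monocytes labelled Zeb2-deficient, against 4.26, 4.0, 3.93 and 4.04 in controls, a difference of -0.21 ± 0.09 (adjusted p = 0.268). All 8 of these values lay below the 40th percentile. Adss read 8.52, 8.58, 8.56 and 8.56 in monocytes labelled Zeb2-deficient, against 8.90, 8.58, 8.89 and 8.80 in controls (difference -0.24 ± 0.11, adjusted p = 0.297), and its control replicate 2 all but touched the other group. Tmsb10 read 12.53, 12.59, 12.58 and 12.43 in monocytes labelled Zeb2-deficient, against 12.64, 12.68, 12.62 and 12.74 in controls, a difference of -0.13 ± 0.06 (adjusted p = 0.283).

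The remaining monocyte differences were small. Crip1 averaged 11.98 ± 0.19 in monocytes labelled Zeb2-deficient and 12.18 ± 0.09 in controls (difference -0.21 ± 0.10, interval -0.42 to 0.0071, adjusted p = 0.296). Pdlim1 averaged 8.27 ± 0.25 in monocytes labelled Zeb2-deficient and 8.31 ± 0.17 in controls, with an interval of -0.36 to 0.29 for its difference. Rragd (0.15, interval -0.068 to 0.36) and Arhgap5 (0.096, interval -0.22 to 0.41) lay below the 40th percentile on every monocyte array, so a difference there could not be measured well.

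**Figure D4:**
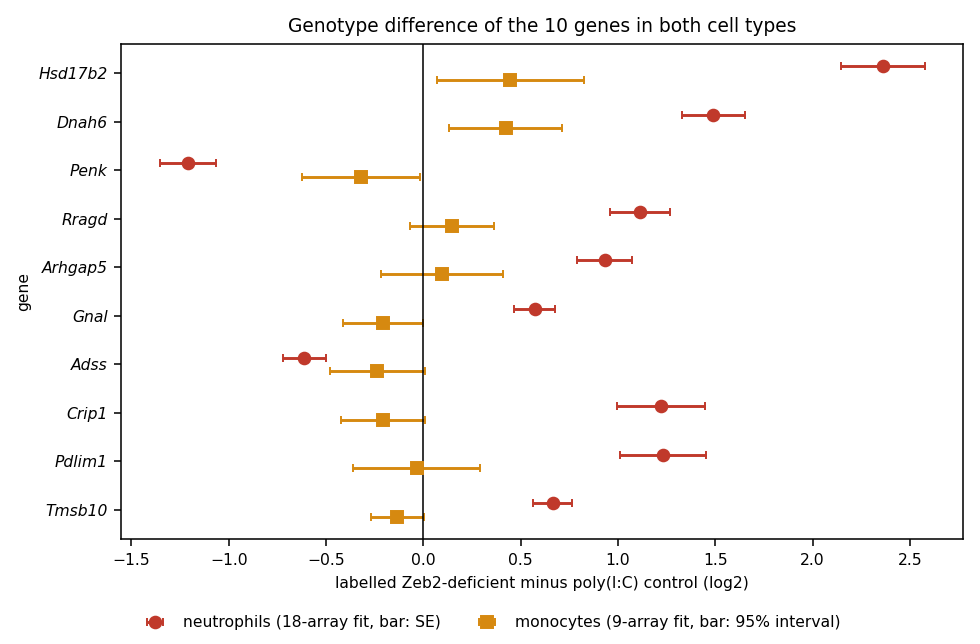
Difference between samples labelled Zeb2-deficient and poly(I:C) controls (log2) for each gene, in neutrophils (circles, bars of 1 SE, 18-array fit) and in monocytes (squares, bars of the 95% interval, 9-array fit). The neutrophil points chose the genes and each lies outside the monocyte interval of its gene, and the monocyte points lie between -0.32 and 0.45.

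Markers of other cells moved with the label in monocytes. The sum over the 14 mature neutrophil markers was 27217 to 38308 in monocytes labelled Zeb2-deficient and 5517 to 17936 in their controls, with 10 of 14 markers called higher, and that over 13 Ly-6C(hi) monocyte markers was 7878 to 17381 in monocytes labelled Zeb2-deficient and 17350 to 19921 in controls, with 3 called lower. Over 11 primary granule and promyelocyte markers the sum was 4198 to 16681 in monocytes labelled Zeb2-deficient and 777 to 4159 in their controls. Among these controls, replicates 4 and 5 (set B) read 4159 and 2336, and replicates 1 and 2 (set A) read 906 and 777. Poly(I:C) control neutrophils read 855 to 963 on these markers, of which 9 were called higher in monocytes. Over 8 of 9 stem and progenitor markers the sum was 324 to 885 in monocytes labelled Zeb2-deficient and 210 to 271 in controls. Poly(I:C) control neutrophils read 528 to 572 on them. Of these markers 3 were called higher: Kit, Myb and Erg. They averaged 6.05, 7.07 and 7.89 in control neutrophils, against 4.52, 6.10 and 5.09 in control monocytes. The other tested markers, Meis1 (-0.35), Hoxa9 (0.08) and Gata2 (-0.02), were not called. The part of other cells in these monocyte differences was not tested.

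In control cells the 10 genes split by cell type, and these values share the control neutrophil arrays by which the genes were chosen. Crip1 was 67.3-fold higher in control monocytes than in control neutrophils (12.18 ± 0.09 in monocytes and 6.11 ± 0.47 in neutrophils, SD, n = 4 each), Pdlim1 8.89-fold and Tmsb10 3.74-fold. Dnah6 was 7.33-fold lower in control monocytes than in control neutrophils, and Rragd 2.97-fold lower. The groups did not overlap for 7 of the 10 genes, against 56.2% of all genes tested. The exceptions were Penk, Arhgap5 and Gnal.

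Crip1, Pdlim1 and Tmsb10 stayed below their control monocyte level in neutrophils labelled Zeb2-deficient. Crip1 averaged 7.33 ± 0.51 there, against 12.18 ± 0.09 in control monocytes, Pdlim1 6.39 ± 0.60, against 8.31 ± 0.17 in control monocytes, and Tmsb10 11.43 ± 0.19, against 12.67 ± 0.05 in control monocytes. Each mean lay nearer to that of control neutrophils than to that of control monocytes. Dnah6, already higher in control neutrophils, stood at 8.15 ± 0.36 in neutrophils labelled Zeb2-deficient, against 3.79 ± 0.20 in control monocytes. The sum over monocyte markers in neutrophils, given above, overlapped between the groups. Of these markers 0 of 13 were called there, beside 0.12% of all genes tested.

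The 10 genes were 10 of the 16 called in the neutrophil comparison, which is 0.12% of all genes tested. Fitted on the neutrophil arrays alone, 4 of the 10 were called (Hsd17b2, Dnah6, Penk and Arhgap5), where 0.0672% of all genes were. With the replicate numbers as pairs 6 were, where 0.0822% of all genes were. The paired fit, which takes the difference from replicates 1, 2 and 4 alone, lost Rragd, Gnal, Adss and Crip1. These same arrays chose the genes, so nothing is read from the counts of the 10. The other 6 of the 16 called genes, which are not among the 10, were all higher in neutrophils labelled Zeb2-deficient. Clec4n, the C-type lectin receptor dectin-2, averaged 7.72 in neutrophils labelled Zeb2-deficient and 5.92 in controls, and the cytokine Csf1 averaged 7.94 in neutrophils labelled Zeb2-deficient and 6.46 in controls. The stefin Cstdc6 differed by 2.20 ± 0.35, the transcription factor Egr2 by 1.45 ± 0.24, the interferon-inducible Ifi203 by 0.89 ± 0.16 and B930095G15Rik by 0.85 ± 0.15. Gnal (0.57 ± 0.10) and Crip1 (1.22 ± 0.23) lay just inside the threshold, and Mta3 (0.63 ± 0.12) and Clic4 (0.86 ± 0.17) just outside it.

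Genes related to the 10 were examined in 9 lists, 1 for each gene but Arhgap5, and the lists held 135 tested genes besides the 10. In neutrophils 0 of the 135 were called by limma, beside the 0.12% of all genes, and the list medians lay between -0.13 and 0.03. The median was -0.05 over 7 hydroxysteroid dehydrogenases of the Hsd17b family, 0.03 over 8 dynein heavy chains, -0.06 over 6 genes of opioid peptides and their receptors and -0.03 over 25 genes of the Rag GTPases, Ragulator and their regulators. It was -0.03 over 29 G protein and adenylyl cyclase genes and -0.01 over 19 genes of purine synthesis and salvage. For the structural lists it was -0.09 over 19 cysteine-rich LIM proteins, -0.03 over 7 PDZ-LIM proteins and alpha-actinins and -0.13 over 15 genes of thymosins and actin monomer binding.

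In monocytes 6 of the 135 related genes were called, all higher, a share of 4.44% beside 3.74% for all genes. All 6 stood in the structural lists. In the same arrays 10 of 14 mature neutrophil markers and 9 of 11 primary granule markers were called higher. Actn1, the alpha-actinin that cross-links actin filaments, averaged 7.61 in monocytes labelled Zeb2-deficient and 4.48 in controls (difference 3.13 ± 0.34, adjusted p = 0.00120 in limma). Pdlim7, a relative of Pdlim1, differed by 1.32 ± 0.19 (adjusted p = 0.00456), the LIM proteins Fhl3 by 1.23 ± 0.25 (0.0244) and Tes by 0.72 ± 0.16 (0.0285), and the actin-severing proteins Dstn by 0.95 ± 0.21 (0.0280) and Gsn by 0.85 ± 0.19 (0.0313). In control neutrophils these genes averaged 10.28 (Actn1), 8.60 (Pdlim7), 7.71 (Fhl3), 8.21 (Tes), 10.84 (Dstn) and 8.85 (Gsn), each above its level in control monocytes. The part of other cells in the differences of these 6 genes was not tested. Pdlim1 and Crip1 themselves, as given above, were not called in those arrays. In each of the other 6 lists no gene was called in monocytes, and the smallest p belonged to Hsd17b7 (0.69 ± 0.19), Dnah8 (0.92 ± 0.23), Pnoc (-0.29), Mitf (-0.46 ± 0.12), Gng12 (0.50 ± 0.14) and Ppat (0.60 ± 0.15), with adjusted p from 0.0552 to 0.223.

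The genes most alike to each of the 10 were ranked by Pearson correlation over the 18 arrays. This is a description over arrays of 2 cell types and of the genotype contrast by which the 10 genes were chosen. Hsd17b2 ran closest with Cstdc6 (0.923) and Clec4n (0.922), and Arhgap5 closest with Hsd17b2 (0.916) and Clec4n (0.901). Dnah6 and Rragd were each other's nearest gene (0.979), followed by Wwtr1 for Dnah6 (0.972) and Gm2511 for Rragd (0.957). Pdlim1 and Tmsb10 were likewise each other's nearest gene (0.984), followed by Alg8 for Pdlim1 (0.970) and P2ry6 for Tmsb10 (0.975). Taken within groups, Dnah6 with Rragd gave 0.24 in neutrophils and 0.53 in monocytes. Within groups Pdlim1 with Tmsb10 gave 0.83 in neutrophils and 0.76 in monocytes, and Hsd17b2 with Arhgap5 0.78 in neutrophils and -0.34 in monocytes. Differences between the array sets were not taken out of these values. In each neutrophil group given poly(I:C), Pdlim1 and Tmsb10 both read higher on every set B array than on any set A array.

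Crip1 ran with Ifi209 (0.992) and Mtarc2 (0.990), Adss with Mtg1 (0.948) and Scarb1 (0.942), and Gnal with Inafm2 (0.885) and Trp63 (0.880). Penk had no close match: its nearest genes were Ralb (0.695) and Inpp4b (0.672).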

How the data were processed

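Biotin-labelled RNA was hybridised to Affymetrix Mouse Gene 1.0 ST arrays, a platform named in the probe annotation's header. The authors deposited log2 intensities per probe set, for which the submitters' processing notes name RMA. The version of RMA and its background step are unknown here. Of 30177 probe sets, 21789 had 1 gene symbol, 1621 several and 6767 none, and only those with 1 symbol were used, naming 19938 genes. The probe set with the highest mean stood for each gene. A gene was tested if it exceeded the array's 40th percentile on 4 or more of the 18 arrays, and 13387 genes did, all 10 described ones among them. Array medians ran from 4.81 to 4.92, no arrays were identical, and the number of arrays limits the precision.

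Differences were fitted with limma 3.58.1 in R 4.3.3 with a variance trend, and p-values were adjusted by Benjamini-Hochberg at 0.05 over all genes tested. The monocyte fit used the 9 monocyte arrays (6 residual degrees of freedom), since a spread shared with neutrophil arrays would carry over the choice of genes. The monocyte arrays' own spread had entered the 18-array fit by which the genes were called. The neutrophil fit used all 18 arrays (12 residual degrees of freedom). The untreated arrays entered as groups of their own. The scripts were tested on simulated data.

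The 10 genes, the related lists and the marker lists were chosen with earlier results of these data known. The list of genes related to Arhgap5 is not reported here. Genes named beside the 10 are Zeb2, the other genes called in neutrophils and the next 2, the neighbours, up to 2 genes of each list called in monocytes or otherwise the 1 with the smallest p, and the 2 most alike to each gene. Neighbours were added after their values were seen.

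Control and labelled-deficient arrays with the same number shared deviations from their group means, with correlations of 0.183 to 0.428 in all 6 pairs (numbers 1, 2 and 4 in each cell type), so the numbers were taken as pairs in an alternative fit. Pairs within a set but of any number gave 0.127 to 0.428. In neutrophils the paired fit called 11 genes in place of 16, and in monocytes 217 in place of 501. That fit takes the difference from numbers 1, 2 and 4 alone. Labelled-deficient replicate 3 and poly(I:C) control replicate 5 had no partner given poly(I:C). The effect of pairing and that of fewer arrays cannot be told apart there. Alternatives covered the filter, probe set rule, normalization, variance trend, samples in the fit, sets, pairing and leaving out each array. Promoter windows are RefSeq's for GRCm38.p6, and 99.59% of genes matched RefSeq by gene ID. No protein sequence was used.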

Additional observations from a re-analysis of the deposited data

Results flagged for a closer look

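Of 40 groups of 4 arrays, 3 held an array far from the other 3 by Dixon's ratio, and chance gives about 1 in 20 such groups. Hsd17b2 read 4.54 in poly(I:C) control neutrophil replicate 5, against 4.77 to 4.79 in the other controls. Penk read 5.09 in control neutrophil replicate 4, against 5.66 to 5.71 in the others, and it still lay above every array labelled Zeb2-deficient. Crip1 read 12.31 in control monocyte replicate 2, against 12.13 to 12.15 in the others.

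For a pair of genes every array labelled Zeb2-deficient lay above all poly(I:C) controls in neutrophils and below them in monocytes. The choice of the genes used the neutrophil side. On the monocyte side, 3.92% of all genes tested had groups that did not overlap in the lower direction. The share of all genes with both was not counted, so nothing is read from the pair. Gnal differed by 0.57 in neutrophils and -0.21 in monocytes, where all its poly(I:C) arrays lay below the 40th percentile. Tmsb10 differed by 0.66 in neutrophils and -0.13 in monocytes. The difference between the cell types was not tested, because the neutrophil arrays chose the genes.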

How the results depend on the processing

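The monocyte count of 501 genes became 1010 with all 18 arrays in the fit, 217 with the replicate number as a block, 1187 with the array set as a block, 163 within set A, 1427 within set B, and 173 to 1621 with 1 array left out. None of the 10 genes was called in monocytes, but 1 was with the set as a block (Dnah6, 0.42, adjusted p = 0.0358), 1 within set B (Hsd17b2, 0.80, 0.0258) and 0 to 3 with 1 array left out. The 3 came without labelled-deficient replicate 2: Hsd17b2 (0.60, 0.0207), Dnah6 (0.51, 0.0272) and Crip1 (-0.30, 0.0339). The sign of the monocyte difference turned for Pdlim1 (0.033 within set A, -0.11 to 0.050 with 1 array left out) and Arhgap5 (-0.087 within set B, -0.011 to 0.20). The other 8 kept their sign in every alternative run. The neutrophil count of 16 became 9 with the neutrophil arrays alone, 27 with the set as a block, 4 within set A and 8 to 17 with 1 array left out. Of the 10 genes 4 were called with the neutrophil arrays alone (Hsd17b2, Dnah6, Penk and Arhgap5) and 4 within set A. Under the replicate block, which takes the difference from replicates 1, 2 and 4 alone, 6 were called (it lost Rragd, Gnal, Adss and Crip1). With 1 array left out 6 to 9 were called. These same arrays chose the genes, so nothing is read from those counts. All 10 kept their neutrophil sign in every alternative run. As their neutrophil groups did not overlap, leaving out an array or taking 1 set could not have turned that sign. A filter at the 50th percentile left Arhgap5 and Gnal untested. The cause of these changes was not tested. Values below the 40th percentile limit Arhgap5 and Gnal in both cell types, Penk in neutrophils labelled Zeb2-deficient, and Rragd, Dnah6 and Hsd17b2 in monocytes.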
